A study of Homo sapiens with 6 samples.

Results

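Gene expression of 95D cells, a human lung cancer line, kept without glucose was set against that of the same line in complete medium. These are 4 of the 6 libraries of the series, 2 of each medium, and the genes described are the 15782 of 59609 gene names that reached 1 FPKM (fragments per kilobase of transcript, relative to all mapped fragments) in at least 1 of these libraries. In both groups the cells were wild type and had been plated for 24 h in complete DMEM, then stayed for 48 h in complete or in glucose-free DMEM. Each medium held 10% serum, but only the glucose-free and glutamine-free media are described as having dialyzed serum, so removal of glucose and of the small molecules of serum cannot be told apart. The remaining libraries are from glutamine deprivation, of which 1 could be matched to its label and is used only as a second reference.

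Glucose is broken down by glycolysis for energy and carbon, and it also supplies the sugars that are attached to proteins in the endoplasmic reticulum (ER). Cells that lack it are known to turn on the unfolded protein response, which raises ER chaperones through promoter elements read by ATF6 and XBP1, and the integrated stress response, in which the transcription factor ATF4 induces DDIT3. Sugar phosphates are also sensed directly: the factors MondoA and ChREBP enter the nucleus when glucose is taken up and activate TXNIP, which encodes an inhibitor of thioredoxin and of glucose uptake.

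The libraries held between 35137000 and 48951000 fragments, as inferred from whole-read steps in the values, and log2 levels correlated with r = 0.991 between the controls, 0.985 between the glucose-deprived libraries and 0.951 to 0.959 across groups, over genes, which are not independent replicates. Of 20 markers of lung carcinoma epithelium 13 stayed below 1 FPKM in all 4 libraries and 5 were listed at 0 in all of them. EPCAM, KRT7, KRT19, CDH1 and the surfactant genes SFTPB and SFTPC were at 0 or close to it, while 7 markers reached 1 FPKM, with KRT8, KRT18 and VIM, which encode intermediate filament proteins, among them. VIM stood at 76.2 and 74.6 FPKM in control and 133 and 147 FPKM without glucose, and with it the summed level of the markers went from 111 to 114 FPKM in control to 165 to 184 FPKM. The stem cell factor SOX2 stood at 3.93 and 4.08 FPKM in control and 1.76 and 1.92 FPKM without glucose and the lung factor NKX2-1 at 1.04 and 1.07 FPKM against 0.707 and 0.694 FPKM, while the neuroendocrine markers SYP (2.47 and 1.96 FPKM in control, 3.70 and 4.47 FPKM without glucose) and NCAM1 (3.24 and 3.16 FPKM, 4.43 and 4.29 FPKM) were higher in both deprived libraries. The part of these markers in the results was not tested. Of 29 markers of blood, endothelium, fibroblasts, muscle, neurons and liver 28 stayed below 1 FPKM in all libraries, the exception being the neuronal tubulin gene TUBB3 (0.942 and 0.921 FPKM in control, 2.34 and 3.06 FPKM without glucose), and their summed level was 4.18 to 5.33 FPKM in control and 4.50 to 5.15 FPKM without glucose. Below, levels are FPKM after scaling between libraries, fold changes are differences of mean log2(FPKM + 1) with their standard error (SE), glucose deprivation minus control, and a gene is said to have risen or fallen where its Benjamini-Hochberg adjusted p from limma was under 0.05. The added 1 FPKM understates the change of genes of low level.

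Glucose removal moved many genes by a little and few by a lot. Of the 15782 genes tested 57.6% passed, with 27.9% of all tested rising and 29.7% falling (4399 and 4684 genes, limma). Changes of at least 1.5-fold were made by 1104 genes upward (7%) and 950 downward (6.02%), and changes of at least 2-fold by 246 upward (1.56%) and 174 downward (1.1%). In 79.5% of genes tested the 2 groups did not overlap. The gene lists below hold protein-coding genes, of which 28% rose and 38% fell, and this share moved with level: 32.2% rose and 29% fell at a mean of 1 to 10 FPKM, and 20.3% and 54.7% at 10 to 100 FPKM. These shares are the background for the counts below, and lists of abundant genes are to be read against the last pair. The lists were not matched by level, so a share near the last pair can lie apart from the pair at 1 to 10 FPKM. The balance of rises and falls depended on the scaling: 48.4% of calls were rises here, 66.9% when each library was scaled to its sum (3437 rises and 1704 falls) and 58.8% with upper-quartile scaling, and the median log2 fold change of all genes was 0.03, 0.12 and 0.10 in turn. Scaled to the sum, 19.2% of protein-coding genes rose and 13.2% fell, and each list's counts under that scaling are given beside its own. The labels do not call the replicates separate cultures, and the p-values therefore reflect only how far these libraries differ within a group, which may be technical.

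**Figure D1:**
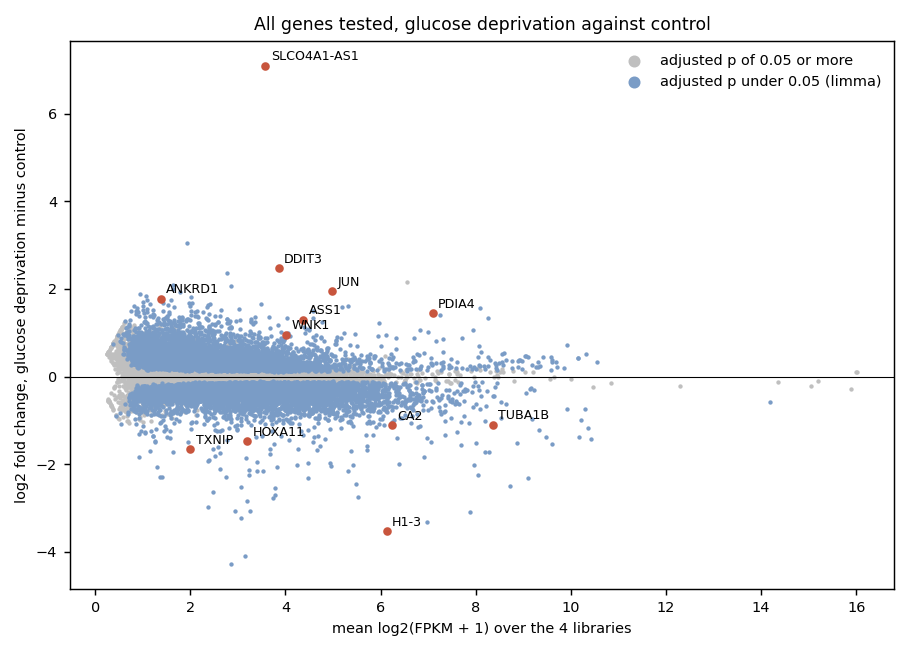
Each point is a gene, with its mean log2(FPKM + 1) over the 4 libraries across and its log2 fold change (glucose deprivation minus control) upward, blue where the adjusted p was under 0.05. SLCO4A1-AS1, whose fold change depends on the added 1 FPKM because it was near 0 in control, stands highest at 7.09 and H1-3 is among the lowest at -3.53.

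The genes that mark this response in the line were far apart between the groups in every library. DDIT3, the gene of the stress transcription factor CHOP, stood at 5.20 and 5.09 FPKM in control and 33.5 and 32.9 FPKM without glucose. JUN, a subunit of the AP-1 transcription factor, stood at 15.3 and 14.9 FPKM in control and 60.5 and 61.8 FPKM without glucose. PDIA4, an ER enzyme that forms and rearranges disulfide bonds, stood at 81.1 and 82.1 FPKM in control and 224 and 224 FPKM without glucose. In these 3 genes the replicates lay close together, and the rises were 2.48 ± 0.05 log2, 1.95 ± 0.04 log2 and 1.45 ± 0.04 log2. TXNIP ran the other way, with 6.004 and 6.17 FPKM in control and 1.34 and 1.15 FPKM without glucose (-1.66 ± 0.07 log2). H1-3, which encodes a linker histone of dividing cells, dropped from 249.7 and 225 FPKM to 19.9 and 19.2 FPKM (-3.53 ± 0.06 log2). The largest of these 5 adjusted p-values was 1.10e-07 (limma). DDIT3 overlaps MARS1 and MBD6 on the opposite strand, and the strand setting of the counting is not given in the sources used here, so reads of overlapping genes cannot be told apart.

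TXNIP is a known direct target of the glucose-sensing factors. The 300 bases around its start in RefSeq (GRCh38.p14, chr1:145996530-145996829, minus strand, 250 before to 50 after the start) are shown because they hold a match to the carbohydrate response element, CACG, any base and G, repeated after a spacer of any 5 bases. The match is in capitals.
TXNIP promoter: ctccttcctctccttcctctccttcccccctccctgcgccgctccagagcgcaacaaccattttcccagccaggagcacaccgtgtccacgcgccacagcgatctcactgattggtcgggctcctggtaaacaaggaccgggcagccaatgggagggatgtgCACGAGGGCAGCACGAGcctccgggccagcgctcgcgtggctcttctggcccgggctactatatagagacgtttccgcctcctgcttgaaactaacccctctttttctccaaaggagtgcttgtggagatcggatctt
The element matched 16 of the 9231 promoters of tested protein-coding genes that RefSeq's table holds (0.173%). Of these, TXNIP had the lowest log2 fold change and KCTD5, an adaptor of cullin ubiquitin ligases, the next lowest, and MYL5, a myosin light chain gene, had the highest. HSPBAP1, STX12, TIGD1 and P4HA1 also rose, TCEAL4, RCN3, RAN and ATP5ME also fell, and HPF1, MTHFS, AKAP10 and PPP2R3C did not pass. Among all protein-coding genes 28% rose and 38% fell. The element was in 0.278% of promoters of genes that rose at least 1.5-fold and in 0.461% of those that fell as much. MYL5 shares its match with ATP5ME on the other strand (-0.70 ± 0.09 log2). KCTD5 stood at 11.1 and 11.7 FPKM in control and 4.44 and 5.02 FPKM without glucose (-1.12 ± 0.06 log2), and MYL5 at 1.85 and 2.02 FPKM in control and 3.56 and 3.59 FPKM without glucose (0.64 ± 0.07 log2). GFPT1, which starts the hexosamine pathway, also held a match and did not pass the test, with 10.2 and 10.3 FPKM in control and 10.3 and 10.1 FPKM without glucose. The TXNIP and KCTD5 matches read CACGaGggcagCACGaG and CtCGTGcaccgCtCGTG, the latter with the motif on the other strand, with the fixed letters in capitals.

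The ER stress element, CCAAT and CCACG with any 9 bases between them, matched 14 of these 9231 promoters (0.152%), and most of those genes are known chaperones or parts of the ER response. Of the 14 genes 11 rose, 1 fell and TMEM120A and ZNF17 did not pass, against 27.9% rises and 29.7% falls among all genes tested. The element was in 5 of 360 promoters of protein-coding genes that rose at least 1.5-fold (1.39%) and in 0 of 651 that fell as much. The matches of 5 genes are shown, as read along each gene's own strand with the fixed letters in capitals, because they let the strongest risers be compared with a neighbour that shares a site. HSPA5 encodes the chaperone BiP (chr9:125241391-125241409, minus strand), HSP90B1 the chaperone GRP94 (chr12:103930216-103930234 and chr12:103930321-103930339, plus strand), CALR the lectin chaperone calreticulin (chr19:12938384-12938402, plus strand), and EIF2A and SERP1 are divergent neighbours that share the site at chr3:150546710-150546728.
HSPA5: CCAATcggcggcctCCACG
HSP90B1 first site: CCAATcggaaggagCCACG
HSP90B1 second site: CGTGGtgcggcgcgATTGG
CALR: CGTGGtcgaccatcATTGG
EIF2A: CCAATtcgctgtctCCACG
SERP1: CGTGGagacagcgaATTGG
HSPA5 stood at 78.8 and 75.99 FPKM in control and 174 and 154 FPKM without glucose, and HSP90B1 at 169 and 172 FPKM in control and 369 and 342 FPKM without glucose. Their rises were 1.07 ± 0.06 log2 and 1.05 ± 0.05 log2, and CALR rose by 0.88 ± 0.04 log2. EIF2A, which encodes a protein that can bring initiator tRNA to the ribosome, stood at 22.6 and 22.6 FPKM in control and 35.9 and 35.7 FPKM without glucose (0.64 ± 0.04 log2). SERP1, the gene of a small protein that stabilises ER membrane proteins, lies on the other side of the same 19 bases and went the other way, with 29.3 and 29.1 FPKM in control and 23.1 and 25.2 FPKM without glucose (-0.26 ± 0.05 log2). A second divergent pair, ALG12 and CRELD2, also shares a match, and both members rose (0.56 ± 0.07 log2 and 0.31 ± 0.05 log2). A match is a stretch of letters and not a measured binding site.

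Of 11 motifs searched on both strands, the others are given by their shares. The ATF4-type sequence, TGATG, any base and AA, was in 1.56% of promoters, in 3.61% of those of genes that rose at least 1.5-fold and in 1.23% of those that fell as much. The heat shock element, GAA, TTC and GAA with any 2 bases between neighbours, was in 0.249% of promoters, in 0 of the 360 and in 5 of the 651. CCAAT was in 37.7% of promoters and in 46.9% of those of fallers, and the cell cycle element TTTGAA in 9.23% and 14.3%, while risers held CCAAT in 38.6% and TTTGAA in 10.8%. CCAAT is part of the ER stress element, so these 2 searches overlap. DDIT3, JUN and PDIA4 were not among the genes found with a match to the ER stress element, where only promoters that RefSeq's table holds were searched. TATAAA was in 5.07% of promoters, 7.5% of those of risers and 9.37% of those of fallers. The cyclic AMP element (TGAC followed by GTCA) was in 3.51%, 3.61% and 4.15% in the same order, the AP-1 site (TGA, any base and TCA) in 3.86%, 5.83% and 4.61%, the E-box CACGTG, which can be a part of the carbohydrate element, in 10.5%, 12.2% and 9.98%, and the NRF1 site (GCGCA, any base and GCGC) in 12.6%, 12.5% and 9.37%.

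Outside the stress, cell cycle and biosynthetic families, the largest rise of a protein-coding gene with a mean log2(FPKM + 1) of at least 3 was that of ASS1, which encodes argininosuccinate synthetase, the enzyme that joins citrulline and aspartate on the way to arginine. ASS1 (chr9:130444929-130501274, plus strand) stood at 12.6 and 11.9 FPKM in control and 30.5 and 32.5 FPKM without glucose, a rise of 1.30 ± 0.05 log2 (adjusted p = 8.34e-08, limma). TBC1D9, a member of the family of Rab GTPase-activating proteins, stood at 5.90 and 5.53 FPKM in control and 14.9 and 14.6 FPKM without glucose (1.24 ± 0.05 log2). CCNB1IP1, a ubiquitin ligase gene known for crossover formation in meiosis, stood at 14.5 and 14.3 FPKM in control and 32.5 and 30.8 FPKM without glucose (1.08 ± 0.05 log2). In all 3 genes both deprived libraries lay at more than the doubled control level. TTC17, a tetratricopeptide repeat gene, stood at 7.64 and 7.73 FPKM in control and 17.4 and 17.8 FPKM without glucose (1.10 ± 0.04 log2). ATXN2L, whose protein is found in stress granules, stood at 5.52 and 5.75 FPKM in control and 13.04 and 12.2 FPKM without glucose (1.04 ± 0.05 log2).

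Signalling, membrane and RNA-binding proteins made up most of the rest of these rises. WNK1, a kinase that controls chloride cotransporters and cell volume, stood at 10.3 and 10.98 FPKM in control and 22.9 and 20.3 FPKM without glucose (0.96 ± 0.06 log2). CIRBP, an RNA-binding protein named for its induction by cold, stood at 19.1 and 18.4 FPKM in control and 35.2 and 36.8 FPKM without glucose (0.91 ± 0.05 log2). SLIT2, a secreted guidance protein that binds ROBO receptors, stood at 15.3 and 17.5 FPKM in control and 32.9 and 30.1 FPKM without glucose (0.90 ± 0.06 log2). Groups that do not overlap were a condition for naming these genes, so their separation is not a result. IGF2R, the receptor that carries mannose 6-phosphate tagged enzymes to lysosomes and clears IGF2, stood at 6.68 and 7.59 FPKM in control and 14.6 and 13.7 FPKM without glucose (0.90 ± 0.06 log2). STX3, a syntaxin of exocytosis, rose by 0.92 ± 0.05 log2 and JUP, the desmosome and adherens junction protein plakoglobin, by 0.89 ± 0.06 log2. The others were PCED1A (0.99 ± 0.06 log2), SPAG7 (0.93 ± 0.05 log2) and TLCD1 (0.89 ± 0.06 log2). TLCD1 overlaps the ribosomal protein gene RPL23A, so part of its value may belong to that gene.

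HOXA11, a homeobox gene of limb and reproductive tract patterning, led the falls outside those families at the same level. It lies at chr7:27181510-27185223, minus strand, overlaps its antisense gene HOXA11-AS and stood at 14.2 and 14.3 FPKM in control and 4.17 and 4.83 FPKM without glucose (-1.47 ± 0.07 log2, adjusted p = 1.66e-07, limma). ID1 stood at 17.1 and 17.5 FPKM in control and 6.30 and 5.88 FPKM without glucose (-1.37 ± 0.07 log2). ID3 stood at 62.8 and 60.5 FPKM in control and 26.9 and 28.8 FPKM without glucose (-1.12 ± 0.05 log2). ID1 and ID3 encode inhibitors of basic helix-loop-helix transcription factors and are classical targets of bone morphogenetic protein signals. NDUFAF8, an assembly factor of respiratory complex I, stood at 29.3 and 30.1 FPKM in control and 12.6 and 11.3 FPKM without glucose (-1.25 ± 0.06 log2). RFK, the riboflavin kinase that makes flavin mononucleotide, stood at 19.2 and 19.3 FPKM in control and 7.39 and 7.73 FPKM without glucose (-1.24 ± 0.05 log2). HIGD1A, a mitochondrial inner membrane protein, fell by a similar amount (-1.16 ± 0.05 log2).

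Parts of the microtubule system were also among the 15 largest falls. DYNLL1, a light chain of the dynein motor, stood at 44.5 and 45.9 FPKM in control and 18.6 and 19.6 FPKM without glucose (-1.20 ± 0.05 log2). The tubulin gene TUBA1B stood at 480.3 and 479 FPKM in control and 220.4 and 227 FPKM without glucose (-1.10 ± 0.05 log2). TUBB4B (-1.12 ± 0.04 log2) and TUBA1C (-1.10 ± 0.04 log2) fell as far. Reads of near-identical tubulin genes can be assigned to the wrong copy, which makes the level of each one uncertain. ZC3HAV1, which encodes the antiviral RNA-binding protein ZAP, stood at 12.6 and 13.6 FPKM in control and 5.51 and 5.61 FPKM without glucose (-1.10 ± 0.05 log2). JPT1 (-1.22 ± 0.06 log2), KCTD5, the carbonic anhydrase gene CA2 (-1.11 ± 0.06 log2) and the tetraspanin gene TSPAN13 (-1.08 ± 0.06 log2) completed the list. All 29 leading genes described here kept their direction and their call in every alternative processing tried.

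**Figure D2:**
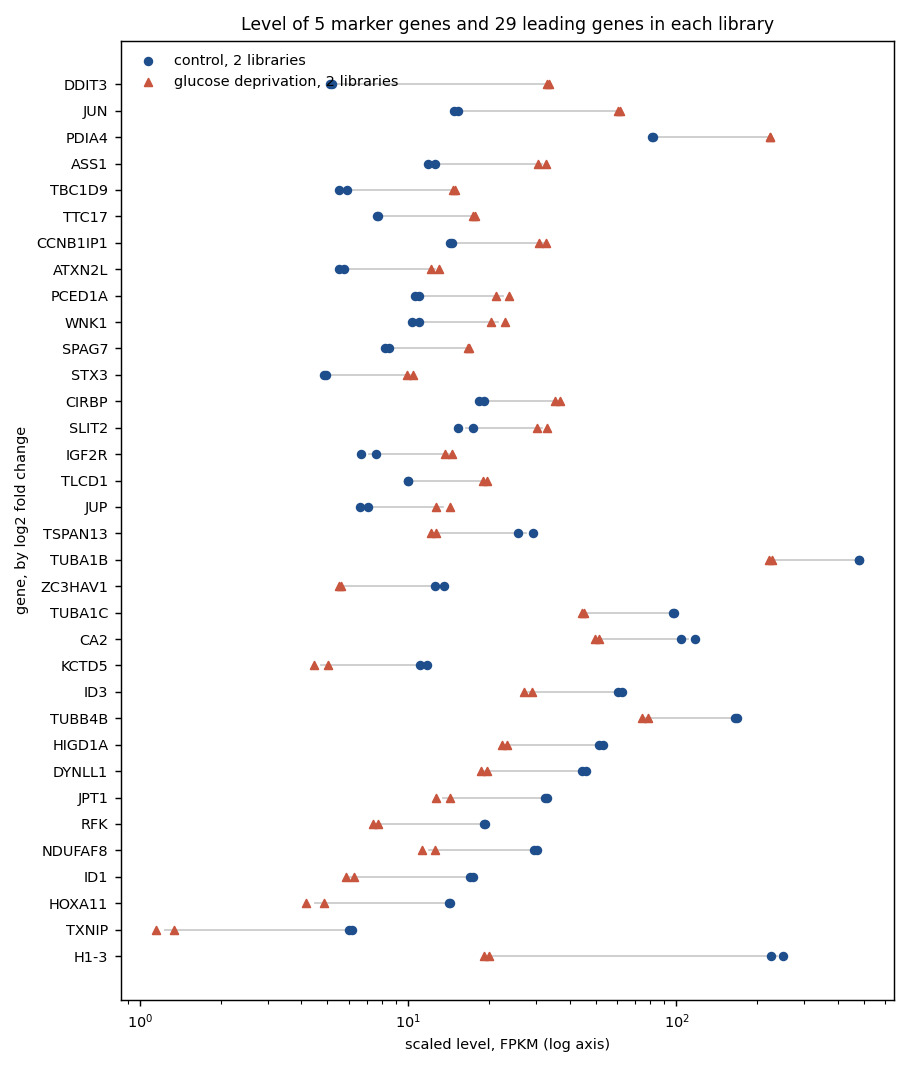
Scaled level (FPKM, log axis) of 5 marker genes and 29 leading genes outside the stress, cell cycle and biosynthetic families in each library, circles for the 2 controls and triangles for the 2 glucose-deprived libraries, ordered by log2 fold change. In each gene the 2 groups are separate, for example HOXA11 at 4.17 and 4.83 FPKM without glucose against 14.2 and 14.3 FPKM. For the 29 leading genes this separation was a condition of the naming rule.

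Some RNAs were close to undetected in one medium. SLCO4A1-AS1, a non-coding RNA antisense to the transporter gene SLCO4A1, was listed at 0.0375 and 0 FPKM in control and at 142 and 134 FPKM without glucose, and at 114 FPKM in the glutamine-deprived library. ANKRD1, a muscle ankyrin repeat gene also known as a target of the coactivator YAP, stood at 0.434 and 0.380 FPKM in control and 3.59 and 4.05 FPKM without glucose, and at 0.418 FPKM without glutamine. ASNSP1, a pseudogene of asparagine synthetase that may share its reads, stood at 0.335 and 0.174 FPKM in control and 3.09 and 2.80 FPKM without glucose. In the other direction the testis linker histone gene H1-6 stood at 6.40 and 3.70 FPKM in control and 0.291 and 0.118 FPKM without glucose. The small RNAs RNU6-616P and RNU7-7P were above 1 FPKM in both deprived libraries and in neither control, and MIR3143, MIR4521, MIR500A and SNORD3C the reverse. A single read gives a short RNA a high FPKM, and the calls of MIR3143, MIR4521 and MIR500A were lost in some alternatives, with adjusted p-values up to 0.0899, 0.0951 and 0.186 (limma).

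Among long non-coding RNAs of moderate level, the largest rises lay inside or across other genes. AC079781.5, which spans ASNS on the same strand, stood at 21.00 and 19.2 FPKM in control and 62.5 and 62.03 FPKM without glucose. AC087276.1 lies within TTC17 and stood at 2.36 and 1.58 FPKM in control and 9.21 and 6.55 FPKM without glucose. AP000786.1 lies within MRE11 and stood at 3.12 and 4.47 FPKM in control and 13.3 and 12.5 FPKM without glucose. The other of the 4 rises that met the naming rule was AC244197.2 (1.66 ± 0.16 log2), which overlaps IDS. AC103591.3, which overlaps the heat shock gene DNAJB4 and GIPC2 on the opposite strand, stood at 15.01 and 12.03 FPKM in control and 0.630 and 1.09 FPKM without glucose. Of the other falls, AC007952.4 contains the gene SNORD3D, Z93241.1 contains RNU12 and AC245014.3 contains RNVU1-14, so their values may include small RNAs, and AC124067.2 lies within LINC01605. In each of these the reads of the RNA and of its neighbour cannot be told apart.

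The nuclear genes that build and maintain mitochondria fell more often than they rose. At 10 to 100 FPKM 54.7% of all protein-coding genes fell and 20.3% rose, which is the background for abundant lists. Of the protein import machinery, 22 of 30 tested members fell (73.3%) and 3 rose (10%), with a median of -0.30 log2, against 0.03 over all genes. TIMM23, the channel of the inner membrane translocase, stood at 76.7 and 78.9 FPKM in control and 35.2 and 38.02 FPKM without glucose (-1.07 ± 0.05 log2). TIMM17A, its partner subunit, stood at 41.04 and 40.5 FPKM in control and 19.6 and 20.49 FPKM without glucose (-0.99 ± 0.04 log2). GRPEL1, the nucleotide exchange factor of the import motor, fell by 0.93 ± 0.05 log2, while TOMM20, a receptor of the outer membrane, and TIMM9, a chaperone of the space between the membranes, rose (0.29 ± 0.04 log2 and 0.35 ± 0.05 log2). Of the assembly factors of the respiratory chain, 29 of 45 tested members fell (64.4%) and 4 rose (8.89%), with a median of -0.32. SDHAF3, which helps to build complex II, fell by 0.87 ± 0.06 log2 and BCS1L, which inserts the Rieske protein into complex III, by 0.84 ± 0.07 log2.

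The genes that copy and read mitochondrial DNA gave a median of -0.34: 17 of 25 tested members fell (68%) and 3 rose (12%). SLIRP, which stabilises mitochondrial messenger RNA, stood at 35.4 and 34.5 FPKM in control and 17.1 and 17.9 FPKM without glucose (-0.96 ± 0.05 log2). TRMT10C, a part of mitochondrial RNase P, fell by 0.90 ± 0.05 log2 and FASTKD5, which processes mitochondrial transcripts, by 0.90 ± 0.07 log2. Of the list on mitochondrial dynamics, cristae and prohibitins, 13 of 26 tested members fell and 1 rose (median -0.15), with the outer membrane channels VDAC1 (-0.64 ± 0.04 log2) and VDAC3 (-0.68 ± 0.05 log2) and prohibitin PHB (-0.65 ± 0.04 log2) as the largest falls. Carriers of the inner membrane were more mixed, 18 lower and 8 higher of 33 (median -0.17). Falls made up 50% of the dynamics list and 54.5% of the carriers, near the 54.7% of protein-coding genes at 10 to 100 FPKM. Rises made up 3.85% and 24.2%, against 20.3%. The share of falls in these lists is therefore not read as particular to mitochondria. The dicarboxylate carrier SLC25A10 fell by 0.84 ± 0.05 log2 and the ADP/ATP carrier SLC25A6 rose by 0.55 ± 0.05 log2, from 130.4 ± 3.88 to 191 ± 12.7 FPKM (mean ± SD, n = 2). With libraries scaled to their sums the counts were 12 lower and 3 higher for import, 13 lower and 3 higher for assembly factors, 9 lower and 0 higher for mitochondrial DNA, 5 lower and 0 higher for dynamics and 5 lower and 4 higher for carriers, so the excess of falls among carriers rests on the scaling, and all 5 medians kept their sign.

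Genes of iron-sulfur clusters and heme followed, with 21 lower and 4 higher of 34 (median -0.20, and 10 lower and 3 higher when scaled to the sum). The one that fell most was HMOX1, the inducible heme oxygenase that degrades heme and answers to oxidative stress. HMOX1 stood at 9.81 and 10.7 FPKM in control and 3.10 and 3.09 FPKM without glucose (-1.46 ± 0.07 log2, adjusted p = 1.45e-07, limma). HMOX2, the constitutive enzyme, fell by 0.76 ± 0.05 log2, and GLRX5, a glutaredoxin that hands on iron-sulfur clusters, by 0.75 ± 0.05 log2. MMS19, which delivers clusters to DNA enzymes, rose by 0.42 ± 0.04 log2. Zinc and copper genes gave 14 lower and 1 higher of 27 (median -0.25, and 6 lower and 0 higher when scaled to the sum), with the metallothionein MT2A at 11.2 and 10.2 FPKM in control and 5.45 and 5.43 FPKM without glucose (-0.86 ± 0.07 log2). In the list of aldehyde, ketone and xenobiotic enzymes 15 of 26 were lower and 4 higher (median -0.28, and 9 lower and 2 higher when scaled to the sum), and the mitochondrial aldehyde dehydrogenase ALDH1B1 (-1.07 ± 0.05 log2) and the carbonyl reductase CBR1 (-0.95 ± 0.05 log2) fell most. The medians of these 3 lists were below 0 under each scaling tried. Falls made up 61.8%, 51.9% and 57.7% of the 3 lists, against 54.7% of protein-coding genes at 10 to 100 FPKM. Rises made up 11.8%, 3.7% and 15.4%, against 20.3%.

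Actin and tubulin genes fell more often than they rose. At 10 to 100 FPKM 54.7% of protein-coding genes fell and 20.3% rose, and over all levels 38% and 28%. Of the actin assembly list, 22 of 30 tested members fell (73.3%) and 4 rose (13.3%), with a median of -0.29. ARPC1B, a subunit of the Arp2/3 complex that nucleates branched actin, stood at 8.28 and 7.69 FPKM in control and 3.67 and 3.91 FPKM without glucose (-0.91 ± 0.06 log2). PFN2, the actin-binding profilin, and CAP1, which recycles actin monomers, fell by 0.82 ± 0.04 log2 and 0.81 ± 0.04 log2, and the formin DIAPH3 rose by 0.43 ± 0.05 log2. Of the tubulin and tubulin-folding list, 12 of 18 tested members fell (66.7%) and 4 rose (22.2%), with a median of -0.27. In it MAP1B, a microtubule-associated protein of neurons, rose most apart from TUBB3, the gene that also stood among the markers of other cell types. MAP1B stood at 6.82 and 7.03 FPKM in control and 13.1 and 12.2 FPKM without glucose (0.79 ± 0.05 log2). Filament-linked genes included the tropomyosin TPM3 (-0.76 ± 0.04 log2), filamin A, FLNA (0.41 ± 0.04 log2), and zyxin, ZYX (0.59 ± 0.07 log2). In the prefoldin and dynein list DYNLL1 fell as given above and the heavy chain DYNC1H1 rose, from 17.4 ± 0.732 to 25.9 ± 0.821 FPKM (mean ± SD, n = 2, 0.55 ± 0.05 log2). Genes of the primary cilium went the other way: 13 of 27 tested members rose (48.1%) and 6 fell (22.2%), with a median of 0.14. In the longest of 5 equal groups of protein-coding genes by genomic span 41.8% rose and 22.5% fell, and the part of span was not tested. IFT80 (0.49 ± 0.05 log2) and BBS2 (0.44 ± 0.06 log2), parts of ciliary transport, were among the rises. The small GTPases ARL3 (-0.54 ± 0.07 log2) and ARL6 (-0.54 ± 0.06 log2) were among the falls. Scaled to the sum, the counts were 9 lower and 3 higher for actin, 7 lower and 3 higher for tubulin and 8 higher and 2 lower for cilium.

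Genes of nuclear transport receptors fell more often than they rose. Of the karyopherin and Ran genes, 18 of 29 tested members fell (62.1%) and 7 rose (24.1%), against 54.7% and 20.3% of protein-coding genes at 10 to 100 FPKM. The median was -0.23, and 7 were lower and 2 higher when scaled to the sum. KPNA2, an importin alpha that is abundant in dividing cells, stood at 139.9 and 145 FPKM in control and 67.7 and 68.5 FPKM without glucose (-1.06 ± 0.04 log2). RANGAP1 and RANBP1, which promote GTP hydrolysis by Ran, fell by 0.83 ± 0.05 log2 and 0.82 ± 0.04 log2. The exportin of transfer RNA, XPOT, and the importin IPO9 rose by 0.45 ± 0.04 log2 and 0.49 ± 0.04 log2. For nuclear pore proteins the counts were 18 lower (64.3%) and 4 higher (14.3%) of 28, with a median of -0.18. With libraries scaled to their sums 1 was lower and 3 were higher, so their balance rests on the scaling. RAE1, which docks messenger RNA at the pore, fell by 0.64 ± 0.05 log2. For the lamina and envelope the counts were 9 lower and 4 higher of 16 (median -0.24, and 2 lower and 1 higher when scaled to the sum). These are 56.2% and 25%, near the 54.7% and 20.3% of protein-coding genes at 10 to 100 FPKM, whereas at 1 to 10 FPKM 29% fell and 32.2% rose. Lamin A, LMNA, stood at 7.03 and 6.70 FPKM in control and 4.50 and 4.83 FPKM without glucose (-0.47 ± 0.05 log2).

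Membrane traffic genes did not move one way. Of the COPII and COPI coat list, 14 of 26 tested members fell (53.8%, near the 54.7% of protein-coding genes at 10 to 100 FPKM) and 4 rose (15.4%). The median was -0.14, and 3 were lower and 3 higher when scaled to the sum. Within COPII, which buds vesicles from the ER, the inner coat gene SEC23A stood at 20.9 and 20.2 FPKM in control and 12.7 and 13.1 FPKM without glucose (-0.64 ± 0.04 log2) and the GTPase gene SAR1B fell by 0.59 ± 0.05 log2. The outer coat gene SEC31A stood at 11.6 and 11.8 FPKM in control and 16.8 and 15.8 FPKM without glucose (0.45 ± 0.05 log2), so subunits of one coat differed in direction. The signal recognition particle genes SRP9 (-0.79 ± 0.04 log2) and SRP54 (-0.58 ± 0.05 log2) fell, whereas SEC63 (0.49 ± 0.06 log2) and TRAM1 (0.41 ± 0.04 log2), which act at the translocon where new proteins cross the ER membrane, rose. In endocytosis the clathrin heavy chain gene CLTC went from 60.7 ± 1.15 to 37.5 ± 1.57 FPKM (mean ± SD, n = 2, -0.68 ± 0.05 log2). The SNARE gene VAMP8, of endosome fusion, fell by 0.84 ± 0.07 log2, and EXOC4, of the exocyst that tethers secretory vesicles, rose by 0.48 ± 0.05 log2. The medians of the SNARE list and of the endocytosis list (-0.04 and -0.08) turned above 0 when libraries were scaled to their sums.

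Genes of chromatin remodelers rose more often than they fell. Rises made up 53.1% and falls 26.5% of the list, against 28% and 38% of all protein-coding genes. In the longest of 5 equal groups of protein-coding genes by genomic span 41.8% rose and 22.5% fell. The part of span in the rises of this list was not tested. Of the ATP-dependent remodelers, 26 of 49 tested members rose and 13 fell (median 0.16, and 11 higher and 3 lower when scaled to the sum). EP400, the ATPase of the TIP60 complex, stood at 2.31 and 2.32 FPKM in control and 5.24 and 4.55 FPKM without glucose (0.83 ± 0.06 log2). SRCAP, which loads histone variant H2A.Z, stood at 5.78 and 6.89 FPKM in control and 12.4 and 10.9 FPKM without glucose (0.79 ± 0.07 log2). ARID1A, a SWI/SNF subunit and tumour suppressor, stood at 3.13 and 3.31 FPKM in control and 6.17 and 5.58 FPKM without glucose (0.70 ± 0.05 log2). The rises were not shared by all subunits of these complexes, as the NuRD subunit MTA2 fell by 0.64 ± 0.04 log2 and the helicase RUVBL1, a part of both INO80 and TIP60, by 0.53 ± 0.05 log2.

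Genes of histone-modifying enzymes rose and fell in number closer to each other, although the falls were few when libraries were scaled to their sums. Rises made up 42.5%, 40.8% and 40.4% of the methyltransferase, acetylation and polycomb lists, near the 41.8% of protein-coding genes of the longest span group. Falls made up 35%, 24.5% and 29.8%, against 22.5% in that group. The part of span was not tested. Of the methyltransferase list, 17 of 40 tested members rose and 14 fell (median 0.05, and 10 higher and 2 lower when scaled to the sum), and 3 genes of the mixed-lineage leukaemia family that place the methyl mark of active promoters and enhancers, KMT2A (0.81 ± 0.05 log2), KMT2D (0.78 ± 0.06 log2) and KMT2C (0.71 ± 0.06 log2), had the largest rises. KMT2A stood at 4.07 and 4.47 FPKM in control and 8.51 and 7.96 FPKM without glucose. DPY30, a small core subunit of the same complexes, fell by 0.57 ± 0.05 log2. Of the acetylation list, 20 of 49 tested members rose and 12 fell (median 0.03, and 15 higher and 3 lower when scaled to the sum). The acetyltransferase CREBBP rose by 0.77 ± 0.05 log2 and the scaffold BRPF3 by 0.82 ± 0.07 log2, and the deacetylase HDAC1 stood at 78.4 and 76.3 FPKM in control and 48.2 and 49.9 FPKM without glucose (-0.65 ± 0.04 log2). Of the polycomb, heterochromatin and DNA methylation list, 19 of 47 tested members rose and 14 fell (median 0.05, and 12 higher and 1 lower when scaled to the sum). The de novo DNA methyltransferase DNMT3B stood at 17.7 and 15.9 FPKM in control and 8.89 and 8.92 FPKM without glucose (-0.84 ± 0.06 log2), while the heterochromatin protein CBX5 rose by 0.75 ± 0.05 log2 and the polycomb methyltransferase EZH1 by 0.62 ± 0.05 log2. Of 74 Mediator, TFIID and elongation genes 31 fell (41.9%, near the 38% of protein-coding genes) and 12 rose (median -0.07, above 0 with sum or upper-quartile scaling, and 6 lower and 10 higher when scaled to the sum). MED12, of the Mediator kinase module, rose by 0.89 ± 0.07 log2 and TAF13, of TFIID, fell by 0.84 ± 0.06 log2.

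Core splicing genes fell more often than they rose. Of the spliceosome list, 42 of 62 tested members fell (67.7%) and 4 rose (6.45%). The median was -0.29, and 14 were lower and 2 higher when scaled to the sum. SNRPG, one of the Sm proteins that form a ring on small nuclear RNAs, stood at 56.2 and 55.8 FPKM in control and 29.2 and 32.2 FPKM without glucose (-0.85 ± 0.05 log2). SF3B6, of the complex that recognises the branch point, and PRPF4, of the U4/U6 particle, fell by 0.77 ± 0.05 log2 and 0.74 ± 0.05 log2, and SYF2 rose by 0.61 ± 0.05 log2. Of the list on 3' end processing and export, 28 of 53 tested members fell (52.8%) and 10 rose (18.9%). The median was -0.15, and 10 were lower and 4 higher when scaled to the sum. ALYREF, the export adaptor, stood at 72.3 and 71.8 FPKM in control and 36.6 and 39.9 FPKM without glucose (-0.90 ± 0.05 log2), and PCF11, which ends transcription, fell by 0.80 ± 0.05 log2. Among hnRNP and other RNA-binding proteins 32 of 67 fell (47.8%) and 14 rose (20.9%). With sum scaling the counts were 9 lower and 7 higher and the median of -0.10 became 0.01. At 10 to 100 FPKM 54.7% of protein-coding genes fell and 20.3% rose, so the shares of the 3' end and hnRNP lists were near that background. HNRNPAB (-0.78 ± 0.04 log2) and HNRNPA2B1 (-0.69 ± 0.07 log2) fell and PCBP2, which binds poly(C) stretches, rose (0.74 ± 0.06 log2). In RNA decay the exosome gene EXOSC4 stood at 22.4 and 24.9 FPKM in control and 9.65 and 12.2 FPKM without glucose (-1.05 ± 0.09 log2), and the poly(A) nuclease subunit PAN2 rose by 0.81 ± 0.05 log2.

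Homologous recombination and Fanconi genes rose more often than they fell. In that list 26 of 45 tested members rose (57.8%) and 5 fell (11.1%), against 28% and 38% of all protein-coding genes. The median was 0.16, and 15 were higher and 2 lower when scaled to the sum. In the longest group by genomic span 41.8% rose and 22.5% fell, and the part of span in this list was not tested. BRCA2, a tumour suppressor needed for repair by recombination, stood at 10.3 and 11.2 FPKM in control and 19.1 and 17.4 FPKM without glucose (0.71 ± 0.06 log2). MRE11, the nuclease that trims broken ends, stood at 9.40 and 9.43 FPKM in control and 16.7 and 15.1 FPKM without glucose (0.69 ± 0.05 log2), and shares its region with AP000786.1. XRCC3, another gene of this repair, fell by 0.54 ± 0.05 log2. Repair by excision, mismatch correction and end joining gave 24 rises (34.8%) and 23 falls (33.3%) among 69 genes. Scaled to the sum, 16 were higher and 4 lower, so the even balance rests on the scaling. The adenine glycosylase MUTYH (0.54 ± 0.08 log2) was among the rises and the ubiquitin ligase RNF168 (-0.59 ± 0.05 log2) was lowest.

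Of the genes of ubiquitin, SUMO and NEDD8 conjugation, 33 of 55 tested members fell (60%) and 8 rose (14.5%). These shares were nearer the 54.7% and 20.3% of protein-coding genes at 10 to 100 FPKM than the 38% and 28% of all of them. The median was -0.22, and 11 were lower and 5 higher when scaled to the sum. UBE2L3, a ubiquitin-conjugating enzyme gene, stood at 36.98 and 36.7 FPKM in control and 19.2 and 21.4 FPKM without glucose (-0.83 ± 0.05 log2), and UBE2N and UBE2V2, which pair to build signalling chains of ubiquitin, fell by 0.69 ± 0.04 log2 and 0.71 ± 0.05 log2. SENP7, which removes SUMO, rose by 0.53 ± 0.05 log2. Cullin ligase and COP9 signalosome genes gave 31 falls (37.3%, near the 38% of protein-coding genes) and 18 rises (21.7%) among 83. The median was -0.07, above 0 with sum or upper-quartile scaling, and 5 were lower and 11 higher when scaled to the sum. Changes ran from KCTD5 to the cullin CUL7 (0.71 ± 0.05 log2). Of 66 deubiquitinases 21 rose (31.8%) and 18 fell (27.3%). The counts were 13 higher and 1 lower when scaled to the sum and 28 higher and 17 lower with upper-quartile scaling. USP40 (0.75 ± 0.05 log2) was highest. The adaptor proteins of the 14-3-3 family YWHAG (-0.76 ± 0.04 log2), YWHAB (-0.75 ± 0.04 log2) and YWHAZ (-0.65 ± 0.04 log2), which bind phosphorylated partners, were the largest falls of the list of 14-3-3 proteins and protein phosphatases, in which 36 of 70 fell and 14 rose (median -0.15, and 11 lower and 7 higher when scaled to the sum). The list's falls were 51.4% and its rises 20%, near the 54.7% and 20.3% of protein-coding genes at 10 to 100 FPKM.

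**Figure D3:**
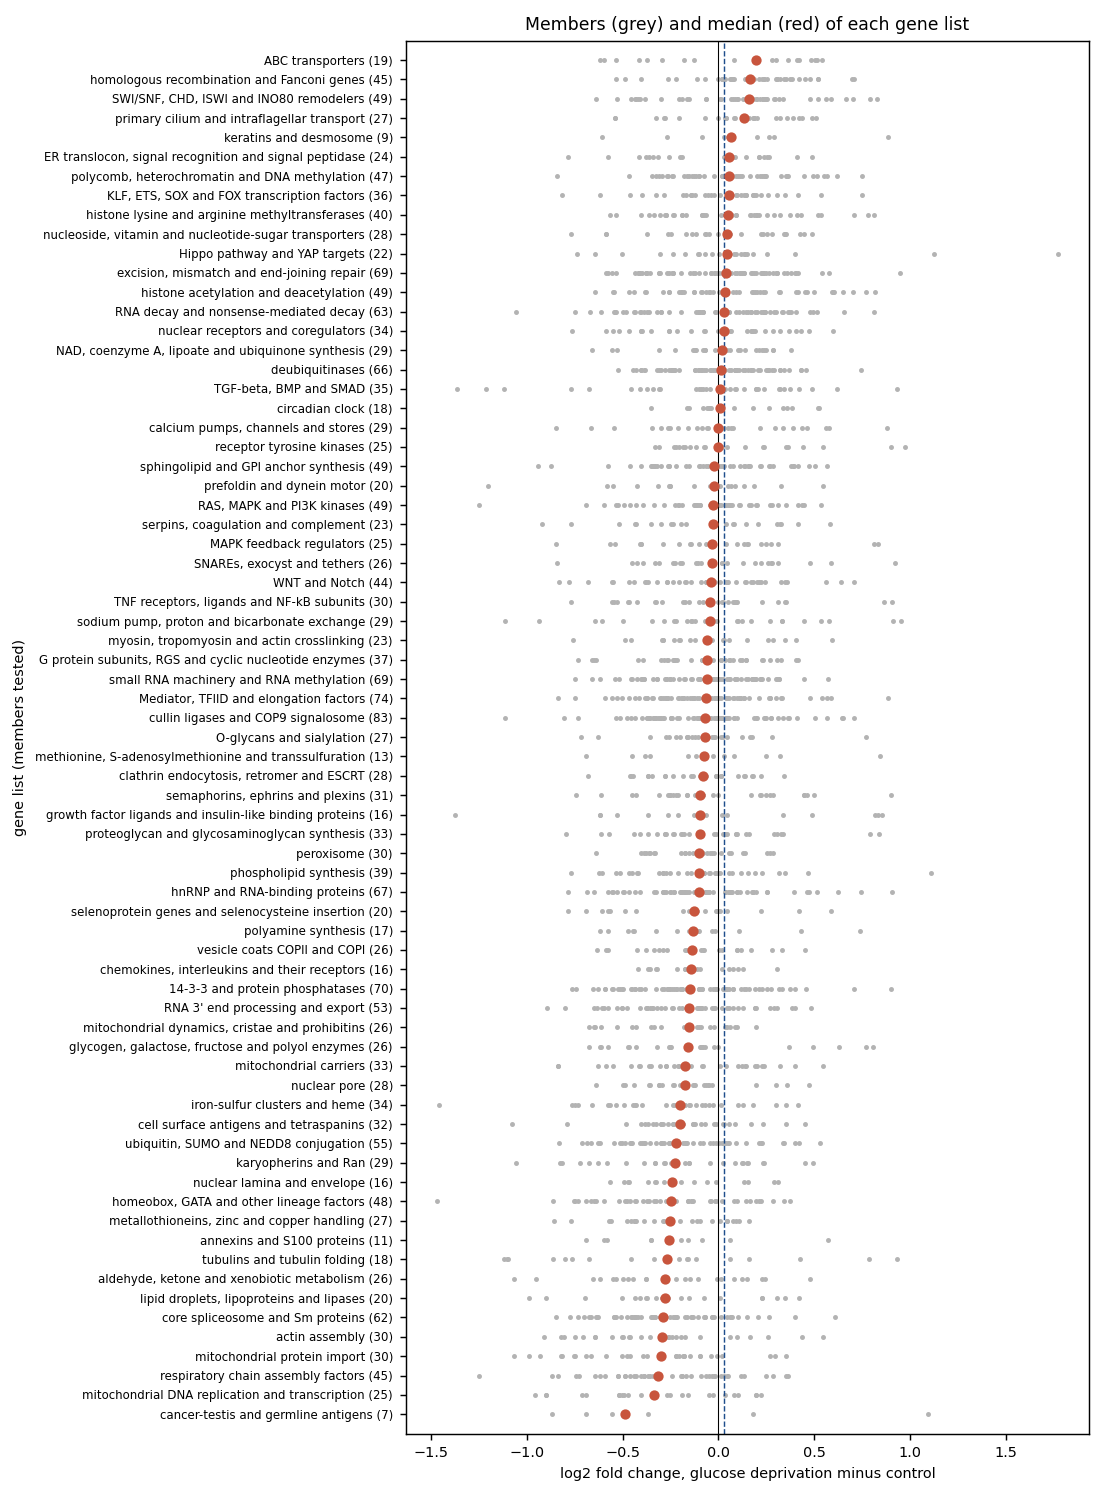
Log2 fold change (glucose deprivation minus control) of each tested member (grey) and the median (red) of the gene lists outside the stress and cell cycle families, with the number tested in brackets and the median of all genes as a dashed line. Medians run from -0.49 for cancer-testis and germline antigens, with 7 members, to 0.20 for ABC transporters, and the 2 lists of cell type markers are left out.

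In signalling, single genes stood out more than lists. The list of TGF-beta, bone morphogenetic protein and SMAD genes had a median of 0.01 with 12 rises and 11 falls among 35 (8 higher and 5 lower when scaled to the sum). SMAD6, an inhibitory SMAD that is itself induced by bone morphogenetic proteins, stood at 8.46 and 8.87 FPKM in control and 3.31 and 3.04 FPKM without glucose (-1.21 ± 0.05 log2). FSTL3, a secreted antagonist of activin, stood at 2.01 and 2.20 FPKM in control and 4.30 and 5.64 FPKM without glucose (0.93 ± 0.10 log2), and LTBP4, which stores latent TGF-beta in the matrix, rose by 0.62 ± 0.08 log2. PIK3R3, a regulatory subunit of PI3 kinase, stood at 8.30 and 8.86 FPKM in control and 3.28 and 2.77 FPKM without glucose (-1.25 ± 0.07 log2). The stress kinase activator MAP2K7 rose by 0.54 ± 0.07 log2 and MAP2K3 fell by 0.60 ± 0.06 log2.

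Receptors and ligands of growth factors moved both ways. DDR2, a collagen receptor, stood at 2.44 and 2.12 FPKM in control and 5.62 and 5.26 FPKM without glucose (0.97 ± 0.06 log2). IGF1R, the receptor of insulin-like growth factors, stood at 4.33 and 4.60 FPKM in control and 7.20 and 6.78 FPKM without glucose (0.55 ± 0.05 log2). VEGFA (0.85 ± 0.05 log2) and VEGFB (0.83 ± 0.08 log2), ligands of the vascular endothelial growth factor family, rose, and the growth factor HDGF fell by 0.53 ± 0.04 log2. Of 16 ligands and insulin-like growth factor binding proteins 5 rose and 6 fell (5 higher and 4 lower when scaled to the sum). The lowest was PGF, a placental ligand of the VEGF family, at 3.76 and 3.46 FPKM in control and 0.758 and 0.797 FPKM without glucose (-1.37 ± 0.07 log2), named after its values were seen because its level was under that of the naming rule. Of 25 receptor tyrosine kinases 8 rose and 5 fell (6 higher and 0 lower when scaled to the sum), with a median that took either sign with the scaling. In the Hippo list AMOTL2, a junction protein and YAP target, stood at 2.23 and 2.15 FPKM in control and 5.83 and 6.13 FPKM without glucose (1.13 ± 0.06 log2). NF2, the tumour suppressor merlin, and MOB1A, both upstream in this kinase cascade, fell by 0.74 ± 0.04 log2 and 0.64 ± 0.04 log2, and the coactivator WWTR1, known as TAZ, fell by 0.50 ± 0.05 log2. TNFRSF12A, the receptor of the cytokine TWEAK, went from 4.65 ± 1.06 to 9.60 ± 2.18 FPKM (0.90 ± 0.14 log2), and lost its call when no filter on low values was used, at an adjusted p of 0.0725. In the Notch and WNT list the ligand JAG2 rose by 0.71 ± 0.06 log2 and the target HEY1 and beta-catenin, CTNNB1, fell by 0.68 ± 0.04 log2 and 0.55 ± 0.04 log2.

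Lineage factors fell more often than they rose. Of the list of homeobox, GATA and other lineage factors, 25 of 48 tested members fell (52.1%) and 7 rose (14.6%). Among protein-coding genes 29% fell and 32.2% rose at 1 to 10 FPKM, and 54.7% and 20.3% at 10 to 100 FPKM. The list's median was -0.25, and 14 were lower and 2 higher when scaled to the sum. After HOXA11 came HOXC9 (-0.76 ± 0.09 log2) and HOXB6 (-0.75 ± 0.06 log2), which set position along the body axis. HOXA3, in the same cluster as HOXA11, stood at 3.62 and 4.09 FPKM in control and 5.57 and 5.02 FPKM without glucose (0.38 ± 0.07 log2), with an adjusted p of 0.0517 when no filter on low values was used. Among other factors SOX4, a developmental regulator, went from 24.9 ± 0.280 to 42.5 ± 0.447 FPKM (mean ± SD, n = 2, 0.75 ± 0.04 log2), FOXO3, a target of insulin signalling, rose by 0.54 ± 0.04 log2, and the retinoic acid receptor RARB rose by 0.60 ± 0.06 log2 while the carrier of retinoic acid CRABP2 fell by 0.77 ± 0.09 log2. The clock gene NR1D2 rose by 0.52 ± 0.05 log2.

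Lipid genes moved both ways. Of the list on lipid droplets, lipoproteins and lipases, 12 of 20 tested members fell (60%) and 4 rose (20%). At 10 to 100 FPKM 54.7% of protein-coding genes fell and 20.3% rose. The list's median was -0.28, and 4 were lower and 3 higher when scaled to the sum. Its falls included the fatty acid carrier FABP5 (-0.99 ± 0.06 log2) and the droplet coat protein PLIN3 (-0.90 ± 0.07 log2). CHKB, which phosphorylates choline for membrane synthesis, rose in the phospholipid list, which had 7 rises and 16 falls among 39 (41% lower, near the 38% of protein-coding genes, and 6 lower and 4 higher when scaled to the sum). CHKB stood at 3.79 and 4.05 FPKM in control and 9.60 and 9.65 FPKM without glucose (1.11 ± 0.06 log2) and overlaps a read-through gene with CPT1B. The acyltransferases GPAM (-0.62 ± 0.06 log2) and AGPAT2 (-0.77 ± 0.05 log2), which start glycerolipid synthesis, fell. DPM3, which anchors the mannose donor enzyme of the ER, fell by 0.87 ± 0.07 log2 and GPAA1, of the complex that attaches GPI anchors, rose by 0.57 ± 0.07 log2. Catalase, CAT, the peroxisomal enzyme that breaks down hydrogen peroxide, fell by 0.64 ± 0.05 log2 in the peroxisome list, which had 11 falls and 4 rises among 30 but 1 lower and 3 higher when scaled to the sum, so that its balance rests on the scaling.

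Of the sugar-handling genes outside glycolysis, 13 of 26 tested members fell (50%) and 5 rose (19.2%), with a median of -0.16. These shares were near the 54.7% and 20.3% of protein-coding genes at 10 to 100 FPKM, whereas at 1 to 10 FPKM 29% fell and 32.2% rose. When libraries were scaled to their sums 6 lower and 5 higher were counted, so the excess of falls rests on the scaling. GALT, which feeds galactose into the nucleotide sugar pool, stood at 4.84 and 4.56 FPKM in control and 7.70 and 7.92 FPKM without glucose (0.63 ± 0.06 log2), and GAA, which digests glycogen in lysosomes, rose by 0.50 ± 0.05 log2. In glycosaminoglycan synthesis CSGALNACT2, which starts chondroitin chains, stood at 5.47 and 4.96 FPKM in control and 10.2 and 9.98 FPKM without glucose (0.84 ± 0.06 log2), and the heparan sulfate proteoglycan SDC1 fell by 0.80 ± 0.08 log2. C1GALT1C1, the chaperone needed for the core of O-linked glycans, fell by 0.72 ± 0.05 log2.

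Transport and calcium genes moved both ways. Calmodulin, a calcium sensor, was lower in CALM3 (-0.66 ± 0.04 log2) and CALM2 (-0.55 ± 0.04 log2). NUCB2, a calcium-binding protein of the secretory pathway, rose by 0.56 ± 0.05 log2. In the ABC transporter list 10 of 19 tested members rose and 8 fell (median 0.20, and 9 higher and 3 lower when scaled to the sum). ABCC10, an efflux pump, and ABCB6, a porphyrin transporter, rose by 0.51 ± 0.05 log2 and 0.48 ± 0.07 log2, whereas ABCE1, which recycles ribosomes and transports nothing, fell by 0.60 ± 0.04 log2. The scaffold SLC9A3R1 fell by 0.94 ± 0.09 log2 and the lysosomal chloride exchanger CLCN7 rose by 0.58 ± 0.06 log2.

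Amino acid-linked cofactor genes included opposite changes. CTH, which makes cysteine from cystathionine, stood at 10.8 and 10.4 FPKM in control and 21.7 and 18.1 FPKM without glucose (0.84 ± 0.08 log2). MAT2A, which makes S-adenosylmethionine, stood at 57.8 and 61.6 FPKM in control and 37.6 and 35.5 FPKM without glucose (-0.69 ± 0.05 log2). SAT1, which acetylates polyamines for breakdown, rose by 0.74 ± 0.06 log2 and AMD1, which supplies their synthesis, fell by 0.62 ± 0.04 log2. Genes for selenoproteins included the methionine sulfoxide reductase MSRB1 (-0.78 ± 0.07 log2) and the selenophosphate synthetase SEPHS2 (-0.69 ± 0.05 log2), both lower. On the surface, the protein C receptor PROCR fell by 0.92 ± 0.07 log2 and the stress ligand ULBP3 by 0.79 ± 0.08 log2. Of 7 cancer-testis and germline antigens 5 fell and 2 rose (median -0.49, and 4 lower and 1 higher when scaled to the sum). MAGED1 and PRAME fell by 0.87 ± 0.05 log2 and 0.69 ± 0.05 log2, and MAGED2 rose by 0.18 ± 0.06 log2, a call that was lost in 6 of the 15 alternatives. TEX19, named after its values were seen, stood at 1.35 and 0.873 FPKM in control and 3.35 and 3.63 FPKM without glucose (1.09 ± 0.12 log2).

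Gene structure and class moved with the fold change. Sorted by genomic span from start to end, the 5 equal groups of protein-coding genes had medians of -0.15, -0.12, -0.07, -0.02 and 0.08 log2 from shortest to longest. Among the shortest 2322 genes 499 rose and 1076 fell, and among the longest 2321 genes 970 rose and 522 fell. With libraries scaled to their sums the medians were -0.05, -0.02, 0.03, 0.07 and 0.17, so the order held while the sign of the middle group and the next longer one turned. Long non-coding RNAs had a median of 0.27, with 543 rises and 119 falls among 1693, and pseudogenes 0.34, with 339 and 51 among 995, against -0.04 for the 11607 protein-coding genes (3246 rises and 4410 falls). The fold change differed by level as well: genes with a mean of 1 to 10 FPKM had a median of 0.08 and those of 10 to 100 FPKM of -0.17. Genes entered where at least 1 library reached 1 FPKM. That level was reached by 14772 and 14522 genes without glucose against 13804 and 13780 in control. Genes of low level could therefore enter through the deprived libraries alone, which can raise the medians of classes that hold many. The median of all genes was 0.028 here, 0.013 with 1 FPKM required in 2 libraries and 0.007 without a filter. The part of the filter, RNA quality, level or span in these differences was not tested.

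**Figure D4:**
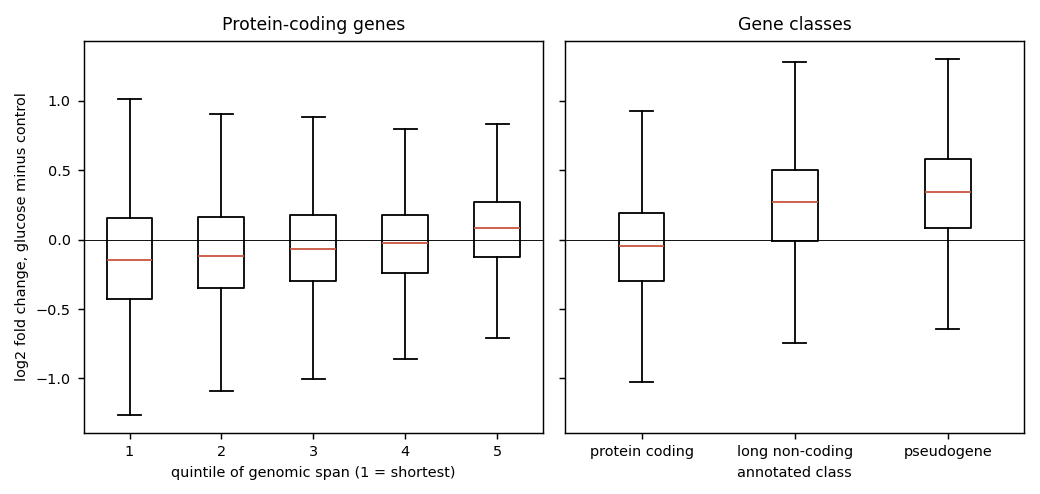
Log2 fold change (glucose deprivation minus control) of protein-coding genes in 5 equal groups by genomic span (left) and of gene classes (right), with the median in red, the box from the first to the last quartile and whiskers to 1.5 times the box. The median climbs from -0.15 in the shortest group to 0.08 in the longest.

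Set against the 1 mapped glutamine-deprived library, 7440 of 16752 genes differed (44.4%), 3665 higher without glucose (21.9%) and 3775 higher without glutamine (22.5%), where the lone library was assumed to vary like the others, so that the calls have no replicate check on the glutamine side, and both media held dialyzed serum. The balance depended on the scaling, with 613 higher without glucose and 3620 higher without glutamine when scaled to the sum and 2378 and 5111 with values as deposited. Of the 34 marker and leading genes 28 differed from it, but 29 of the 34 had been chosen for their change in the same glucose-deprived libraries, so nothing is read from this share. WNK1, IGF2R, CA2 and JUP were among the other 6, with 21.9, 14.8, 51.2 and 12.6 FPKM in the glutamine-deprived library, and DYNLL1 and TUBA1C the remaining ones. Both comparisons share the glucose-deprived libraries.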

How the data were processed

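RNA of 95D cells was sequenced as total RNA after ribosomal RNA depletion, in 150-base read pairs, per the labels' protocols. Per the submitters' processing notes the authors used HISAT2 2.0.5 and StringTie on hg38. The sources used here give no annotation, strand setting or StringTie version. Deposited values are treated as FPKM: the authors' headers name no unit, and 94.9% to 95.6% of low values of single-exon genes were whole reads within 0.05 reads, from which depth was inferred. A combined deposited table held the same values in the 5 columns used, and 1 value column whose header does not match its table was not used.

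Libraries were scaled by trimmed means of log ratios (30% of ratios and 5% of abundances trimmed, factors 0.979, 0.992, 1.03 and 1.00). Genes with at least 1 FPKM in 1 of the 4 libraries entered a fit on log2(FPKM + 1) by limma 3.58.1 (R 4.3.3), with a variance trend over inferred reads, 2 residual degrees of freedom and two-sided Benjamini-Hochberg adjusted p-values, with a threshold of 0.05. The comparison with glutamine deprivation used 5 libraries. The scripts were tested on simulated data. Of the gene names, 56586 matched GENCODE release 29, from which coordinates (GRCh38) come. Promoters are RefSeq's. Some genes that met the naming rule are not reported here.

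Named genes are 5 markers, the 15 largest rises and falls among called protein-coding genes with mean log2(FPKM + 1) of at least 3 outside families treated elsewhere (stress, cell cycle, histone, ribosome, central metabolism and the like), up to 3 called members each way in each of 73 lists, up to 5 genes each way under 0.5 FPKM in both libraries of a group, and up to 5 long non-coding RNAs each way. The 15 each way also had to have both deprived libraries on 1 side of both controls. TXNIP and KCTD5 aside, the genes named with the carbohydrate response element or the ER stress element were chosen by their promoter matches. The members and lists were chosen with earlier results of these data known. Alternatives covered the pseudocount, filter, scaling, variance model, glutamine-deprived library, replicate block and each left-out replicate. The replicate numbers were not taken to pair samples.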

Additional observations from a re-analysis of the deposited data

Results flagged for a closer look

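The effect of removing glucose differed from that of removing glutamine in 28 of the 34 marker and leading genes, by limma's test of the log2 difference between the glucose-deprived libraries and the 1 mapped glutamine-deprived library, adjusted over all genes, of which 44.4% differed. Most of these genes were chosen for their change in the same glucose-deprived libraries, so the share is given as a description. Genes that rose without glucose and lay above the glutamine-deprived library were, with this difference, PDIA4 (1.81), SPAG7 (1.38), TLCD1 (1.36), JUN (1.23), CCNB1IP1 (1.11), DDIT3 (1.09), STX3 (0.95), TTC17 (0.92), ASS1 (0.88), TBC1D9 (0.84), SLIT2 (0.75), PCED1A (0.68) and CIRBP (0.62). Genes that fell without glucose and lay below it were TXNIP (-2.25), H1-3 (-2.21), HOXA11 (-1.12), ZC3HAV1 (-1.11), ID1 (-0.88), KCTD5 (-0.73), ID3 (-0.48), JPT1 (-0.47), HIGD1A (-0.34), RFK (-0.33), TUBB4B (-0.32), NDUFAF8 (-0.24), TSPAN13 (-0.23) and TUBA1B (-0.19). In PDIA4, SPAG7, TLCD1 and TXNIP the difference was clearly larger than the change from control given above. There the glutamine-deprived library lay on the far side of control. The difference therefore includes that library's own distance from control, and its cause was not tested. ATXN2L rose without glucose but lay below the glutamine-deprived library (-0.62), which stood at 20.2 FPKM. With 1 library without glutamine, assumed to vary like the others, the difference has no replicate check on that side.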

How the results depend on the processing

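Of 441 named genes none reversed direction in the 15 alternatives, and the call was lost in 77 with libraries scaled to their sums, 45 without a filter, 35 without control replicate 1, 35 without control replicate 2, 21 and 14 without glucose deprivation replicates 1 and 2, 18 with a variance trend over level, 8 with upper-quartile scaling and at most 2 otherwise. The count of called genes was 5141 with sum scaling (1704 lower), with 20 of 73 list medians changing sign, 17 with upper-quartile scaling and 7 with values as deposited. With a pseudocount of 0.1 FPKM 763 genes rose and 345 fell at least 2-fold, and with 0.5 FPKM 473 rose so, as low genes count for more. Leaving out 1 library gave 6266 to 8066 genes, 2822 (without control replicate 1) to 3816 rises and 211 to 382 rises (the latter without glucose deprivation replicate 2) of at least 2-fold, and a lone library was then assumed to vary like the other group. Against glutamine deprivation 2378 genes were higher without glucose with values as deposited, and 4233 genes differed with sum scaling, 613 of them higher without glucose. The replicate block gave 9127 genes. Same-numbered libraries did not deviate together (r = -0.02), so the numbers were not taken to pair them. With 2 libraries a group, small changes of low genes and of overlapping genes are the least certain. A gene near 1 FPKM rests on few reads, and this limits short RNAs most.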
